A study of Mus musculus with 8 samples.

Results

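The Stat transcription factor family was followed across 8 arrays of mouse embryonic fibroblasts, the mesenchymal cells that grow out of dissociated embryos. Its members were every probe set annotated to 1 of 6 Stat genes (Stat2, Stat3, Stat4, Stat5a, Stat5b and Stat6) and to no other gene. That gave 12 probe sets of 6 genes, among 20380 probe sets with 1 gene symbol and 12393 genes in all. The choice of probe sets used the annotation and no measured value, but it was made with earlier results of these data known. The cells were of 4 genotypes on a C57BL/6 x 129Ola background: Tbk1-/- (with Ikbke intact), Ikbke-/- (with Tbk1 intact), Tbk1-/- Ikbke-/-, and wild type (WT, Tbk1+/+ Ikbke+/+). Each was transfected with B-DNA, the right-handed double-stranded DNA poly(dA-dT)-poly(dT-dA), or mock transfected, and total RNA was taken after 4 h. Each combination of genotype and treatment was measured on 1 array. The labels name neither the number of embryos behind a genotype nor separate cultures, so the spread between arrays may be technical and may include differences between embryos.

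Stat proteins wait in the cytoplasm until a cytokine or interferon receptor activates its Jak kinases. The kinases phosphorylate the receptor and the bound Stat, which then forms dimers, enters the nucleus and binds promoters. Of the 6 genes followed, Stat2 is the interferon member. With Irf9 it forms part of the complex ISGF3, which binds the interferon-stimulated response element (ISRE) of antiviral genes. Stat3 answers the interleukin-6 family, Stat5a and Stat5b answer growth hormone, prolactin and several interleukins, Stat6 answers interleukin-4 and interleukin-13, and Stat4 answers interleukin-12 in lymphocytes. Tbk1 and Ikbke (IKK epsilon) are related kinases that phosphorylate the interferon regulatory factors after nucleic acid is sensed, which is how cytosolic DNA leads to type I interferon.

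The promoter of Stat2 is shown because Stat2 had the largest ratios of B-DNA over mock among the 6 Stat genes followed. The window runs over 300 bases at chr10:128270248-128270547 (GRCm38.p6, plus strand), covering 250 bases before the annotated start of the gene and 50 bases after it. The sequences are RefSeq's. Capitals mark the match to an ISRE core, searched as TTTCNNTTTC with GAAANNGAAA as its other strand. The match begins at position -222 counted from the start site, upstream of the transcript.
Stat2 promoter: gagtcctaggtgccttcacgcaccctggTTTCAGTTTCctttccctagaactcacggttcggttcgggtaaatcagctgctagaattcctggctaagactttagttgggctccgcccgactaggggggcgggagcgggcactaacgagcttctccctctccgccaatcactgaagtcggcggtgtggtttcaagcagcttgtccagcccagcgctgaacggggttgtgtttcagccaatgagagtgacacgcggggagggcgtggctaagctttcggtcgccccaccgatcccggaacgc

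The same core occurred in 1131 of 32851 promoter windows of that length (3.44%). The windows of a single chromosome were left out of this and the following shares. Besides Stat2, the only other Stat gene with a match was Stat4, in the window of its second annotated start (position -97), while the windows of Stat3, Stat5a, Stat5b and Stat6 held none. The palindrome TTCNNNGAA bound by most Stat dimers lay in 8.30% of all windows and in none of the Stat gene windows. The wider spacing TTCNNNNGAA, which Stat6 prefers, lay in 6.95% of windows and in the Stat2 window at position -210. To compare the Stat2 core with genes described further on, 30 bases around it are set beside those of Stat4, of Igtp (chosen for a profile like that of Stat2), of the inhibitor Socs1 and of the antiviral gene Rsad2, each 5′ to 3′ on the strand of its gene. The positions are chr10:128270266-128270295, chr1:52008133-52008162, chr11:58199512-58199541, chr16:10785600-10785629 (minus strand) and chr12:26456553-26456582 (minus strand), in the order printed. By the same search the windows of Tap1, Il13ra1, Nmi, Irf9, Ifit2 and Oasl1, also described further on, held no match, and Parp9, Usp18 and Mx1 were not searched. Socs1 held 2 overlapping matches, at positions -83 and -77, and only the first is in capitals. A match is a string of letters and not a measured binding site.
Stat2: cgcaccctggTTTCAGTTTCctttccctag
Stat4: aatgtcttcaGAAAGTGAAAtttagaacgg
Igtp: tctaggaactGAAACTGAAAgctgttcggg
Socs1: agacttgccgGAAAGAGAAAccgaaagcgg
Rsad2: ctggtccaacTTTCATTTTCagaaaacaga

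Values are the deposited MAS5 signals, a linear brightness per probe set, multiplied on each array by a factor that brought its 2% trimmed mean to 500. Trimmed means before scaling lay between 139 and 254. A floor of 122 replaced any lower value before log2 was taken, and ratios that rest on the floor are written as "at least". A probe set counted as 2-fold in a pair of arrays when the higher value was also at 245 or more. Of the 12 Stat probe sets, 11 reached the floor on 1 or more arrays, among 16406 in all. Precision is limited by the number of arrays, and a ratio within a genotype has no replicate and no test. The brighter Tbk1 probe set read 305 (B-DNA) and 227 (mock) in Tbk1-/- cells, 390 and 291 in Tbk1-/- Ikbke-/- cells, 912 and 473 in Ikbke-/- cells, and 990 and 502 in WT cells, so that every array labelled as lacking Tbk1 lay under every other. The Ikbke signal never reached the floor, so that label could not be checked. Of 10 fibroblast markers, 9 or 10 reached 245 on every array. Of 17 macrophage markers measured, 12 did so with B-DNA and 15 mock in WT cells, against 1 or 2 on each of the other 6 arrays. Their summed signal was 1491 to 1943 on those 6 arrays, where Lyz1, C1qa and Ctss were under the floor, and 6422 (B-DNA) and 22098 (mock) in WT cells.

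Stat2 signal differed by less than 2-fold between B-DNA and mock in both genotypes that lack Tbk1, and was many times higher with B-DNA in both that keep it. The brighter Stat2 probe set (1450403_at) read 202 with B-DNA and 131 mock on the Tbk1-/- arrays, and 224 and 209 on the Tbk1-/- Ikbke-/- arrays. It read 2287 with B-DNA against 238 mock on the Ikbke-/- arrays, and 2008 against 225 on the WT arrays. The B-DNA arrays of Ikbke-/- and WT cells were the high ones, and the other 6 arrays lay between 131 and 238 with no overlap. The folds of B-DNA over mock were 1.54 in Tbk1-/-, 9.61 in Ikbke-/-, 1.07 in Tbk1-/- Ikbke-/- and 8.91 in WT cells. In RNA of whole cultures, more RNA per cell and more cells that make it cannot be told apart.

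The second Stat2 probe set (1421911_at) had the same 2 arrays above all others. Tbk1-/- cells read 36.6 with B-DNA and 55.0 mock, and Tbk1-/- Ikbke-/- cells 75.8 and 112. Ikbke-/- cells read 1301 with B-DNA against 102 mock, and WT cells 1190 against 117. All of these except the Ikbke-/- and WT B-DNA arrays were under the floor, which gives at least 10.6-fold in Ikbke-/- and at least 9.72-fold in WT cells, and no ratio elsewhere. Macrophage marker signal also differed within the WT pair, and its part in the WT ratio was not tested. On each array of the Ikbke-/- pair 1 of 17 macrophage markers reached 245.

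**Figure D1:**
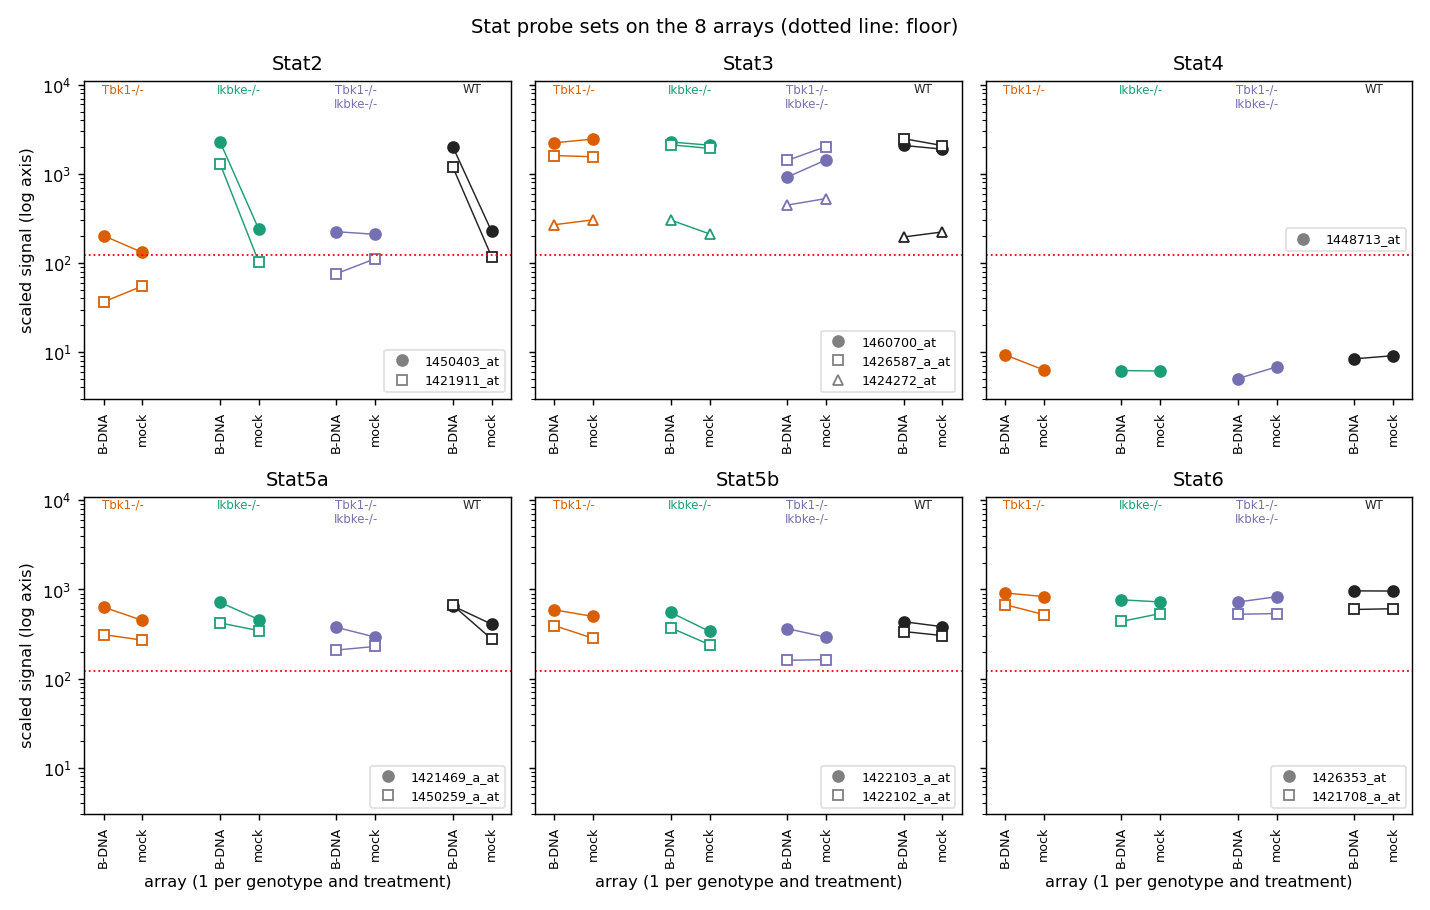
Scaled signal (log axis) of every Stat probe set on the 8 arrays, with the B-DNA array left of the mock array in each genotype and 1 symbol per probe set. The dotted line is the floor of 122. Stat2 is high on the Ikbke-/- and WT B-DNA arrays, Stat4 lies under the floor throughout, and no probe set of the other Stat genes spans more than 3.18-fold.

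Whether the response depends on a kinase was tested with limma over all 8 arrays, as the difference of the log2 ratio of B-DNA over mock between pairs. The dependence on Tbk1 (Tbk1-/- minus Tbk1+/+ pairs) was -2.85 ± 0.26 (SE) for 1450403_at and -3.35 ± 0.24 for 1421911_at, with limma adjusted p = 0.00362 and 0.00116. That is 2 of the 11 Stat probe sets, both of Stat2, read against 1.71% of all probe sets tested (281 of 16406). Probe set 1421911_at reached the floor only on the Ikbke-/- and WT B-DNA arrays, so it entered the test through the arrays where it is high, its size was set partly by the floor, and its p is no separate support. Among the 10901 probe sets above the floor on all 8 arrays, 349 passed, and 1450403_at was the only Stat2 probe set tested (limma adjusted p = 9.8e-05). The fit has 1 residual degree of freedom, which is the joint interaction of B-DNA, Tbk1 and Ikbke and no replicate error. To it limma added 5.71 prior degrees of freedom estimated over all probe sets. Each SE therefore rests mostly on other probe sets and is not the spread of replicates. With a pair fewer the fit has no residual degree of freedom unless the Ikbke term is dropped. Dropping that term alone left 129 of 16406 probe sets passing, both Stat2 probe sets among them (limma adjusted p = 0.0285 and 0.0096). With that term dropped and any 1 of the 4 genotype pairs left out as well, 0 of 16406 probe sets passed with limma (1918 to 2720 had an unadjusted p under 0.05), while the Stat2 difference stayed at -3.11 to -2.59 for 1450403_at and -3.41 to -3.28 for 1421911_at (limma adjusted p between 0.289 and 0.423).

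Stat2 did not pass for Ikbke. The difference, Ikbke-/- minus Ikbke+/+ pairs, was -0.21 ± 0.26 (SE) for 1450403_at and 0.06 ± 0.24 for 1421911_at (limma adjusted p = 0.999 for each). None of the 11 Stat probe sets passed this test, where 0% of all probe sets did (799 of 16406 had an unadjusted p under 0.05). Ikbke genotype cannot be told apart from the sex of the embryos. The female transcript Xist read 139 to 210 on the 4 Ikbke-deficient arrays against 2956 to 3770 on the 4 others, and the Y-linked Eif2s3y read 154 to 287 against 1.48 to 3.63.

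**Figure D2:**
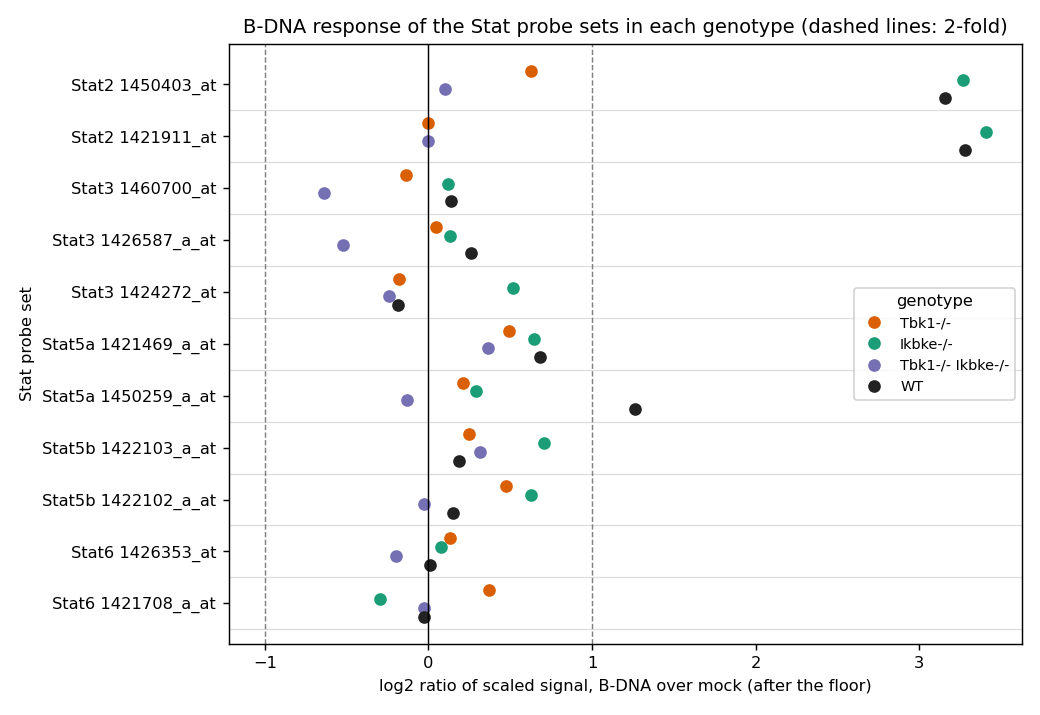
Log2 ratio of scaled signal, B-DNA over mock, for the 11 Stat probe sets that reach the floor, with 1 point per genotype and dashed lines at 2-fold. Both Stat2 probe sets lie past 3 in Ikbke-/- and WT cells, and Stat5a 1450259_a_at in WT cells is the only other point past 2-fold.

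In single pairs, the Stat probe sets at 2-fold or more were 0 of 11 in Tbk1-/- cells, 2 of 11 in Ikbke-/- cells, 0 of 11 in Tbk1-/- Ikbke-/- cells and 3 of 11 in WT cells. Over all probe sets tested the same rule took 0.786% in Tbk1-/-, 4.68% in Ikbke-/-, 1.52% in Tbk1-/- Ikbke-/- and 4.86% in WT cells. All 5 instances were higher with B-DNA: Stat2 in Ikbke-/- and WT cells, and 1 Stat5a probe set in WT cells.

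Stat5a, which answers prolactin and growth hormone, had a probe set with a higher signal in each pair, by a much smaller size than Stat2 in Ikbke-/- and WT cells. Probe set 1421469_a_at read 633 with B-DNA and 450 mock in Tbk1-/- cells, 717 and 459 in Ikbke-/- cells, 376 and 292 in Tbk1-/- Ikbke-/- cells, and 653 and 407 in WT cells. The B-DNA array was the higher one in 4 of 4 pairs, with log2 ratios of 0.49, 0.64, 0.36 and 0.68 in that order, and the pairs of different genotypes overlapped. The direction was the same in all 4 pairs without further scaling and after quantile normalization. Averaged over the pairs the response was 0.54 ± 0.09 (SE) with an unadjusted limma p of 0.0019, which did not pass over all probe sets (limma adjusted p = 0.618).

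The second Stat5a probe set (1450259_a_at) was 2-fold only in WT cells. It read 312 with B-DNA and 270 mock in Tbk1-/- cells, 421 and 344 in Ikbke-/- cells, 209 and 229 in Tbk1-/- Ikbke-/- cells, and 665 and 278 in WT cells. The WT B-DNA array stood above the other 7, at 2.39-fold its mock array. Macrophage marker signal also differed in that pair, and its part in this ratio was not tested. Without further scaling the log2 ratio was 0.86, against 1.26 as reported, and no longer reached 2-fold. The dependence on Tbk1 was -0.74 ± 0.26 (SE) with limma adjusted p = 0.255, so this probe set did not pass.

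Stat5b, the paralogue of Stat5a and the main Stat behind growth hormone in liver, differed by less than 2-fold in each pair. Probe set 1422103_a_at read 591 with B-DNA and 498 mock in Tbk1-/- cells, 552 and 338 in Ikbke-/- cells, 363 and 292 in Tbk1-/- Ikbke-/- cells, and 435 and 382 in WT cells. The B-DNA array was the higher one in each pair, by log2 ratios of 0.25, 0.71, 0.32 and 0.19, but without further scaling the WT ratio turned to -0.22. The other probe set, 1422102_a_at, had ratios of 0.48, 0.63, -0.03 and 0.15 in the same order of genotypes, and the WT ratio turned to -0.25 without further scaling. The average response was 0.36 ± 0.12 and 0.31 ± 0.14 (SE), with limma adjusted p = 0.620 for each. Probe set 1422102_a_at was lowest on the 2 Tbk1-/- Ikbke-/- arrays (160 with B-DNA and 163 mock), against 240 to 393 on the other 6. Whether the Stat5a and Stat5b probe sets take up each other's transcripts was not tested.

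Stat3, which carries signals of the interleukin-6 family, was above the floor on all arrays with each of its 3 probe sets, and differed by less than 2-fold in every pair. Probe set 1460700_at read 2231 with B-DNA and 2453 mock in Tbk1-/- cells, 2277 and 2096 in Ikbke-/- cells, 918 and 1431 in Tbk1-/- Ikbke-/- cells, and 2083 and 1892 in WT cells. The 2 Tbk1-/- Ikbke-/- arrays were the lowest of the 8, and the B-DNA one was at 0.641 times its mock array. Probe set 1426587_a_at read 1411 with B-DNA and 2024 mock in Tbk1-/- Ikbke-/- cells, a ratio of 0.697, while the other 3 pairs had log2 ratios of 0.05 to 0.26. Without further scaling those 3 turned to -0.13 in Tbk1-/-, -0.10 in Ikbke-/- and -0.14 in WT cells, and the ratios of 1460700_at in Ikbke-/- and WT cells turned to -0.11 and -0.26.

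The Stat3 probe sets disagreed on the level in Tbk1-/- Ikbke-/- cells. On the B-DNA arrays, the difference Tbk1-/- Ikbke-/- minus WT was -1.18 (log2) for 1460700_at and -0.82 for 1426587_a_at, and 1.19 for 1424272_at. On the mock arrays it was -0.40, -0.04 and 1.24 in the same order. Probe set 1424272_at was thus highest where 1460700_at was lowest, at 445 with B-DNA and 528 mock in Tbk1-/- Ikbke-/- cells, against 195 to 304 on the other 6 arrays. No Stat3 level in Tbk1-/- Ikbke-/- cells can be given a direction from these 3 probe sets. Their dependence on Tbk1 ran from -0.52 to -0.38, with limma adjusted p of 0.386 or more.

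Stat6, the interleukin-4 and interleukin-13 member, spanned the least of the 5 Stat genes above the floor. Probe set 1426353_at read 913 with B-DNA and 833 mock in Tbk1-/- cells, 765 and 724 in Ikbke-/- cells, 723 and 829 in Tbk1-/- Ikbke-/- cells, and 964 and 960 in WT cells. Its highest array was 1.33 times its lowest, and treated and mock arrays overlapped. The other probe set (1421708_a_at) lay between 438 and 675, with log2 ratios of -0.29 in Ikbke-/- cells to 0.37 in Tbk1-/- cells. The average responses of both were 0.01 (log2) with SE 0.09 and 0.13, and limma adjusted p of 0.989 and 0.993.

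Stat4, the interleukin-12 member of T and NK cells, was not measured above the floor. Its probe set 1448713_at read 9.31 with B-DNA and 6.29 mock in Tbk1-/- cells, 6.20 and 6.12 in Ikbke-/- cells, 5.03 and 6.81 in Tbk1-/- Ikbke-/- cells, and 8.38 and 9.09 in WT cells. Values this far under the floor were given no order and no ratio. None of the 9 lymphocyte markers with a probe set reached 245 on any array. Of 11 listed partners of Stat4 in lymphocytes 3 were measured. None of the 3 passed for Tbk1, where 1.95% of all genes passed.

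**Figure D3:**
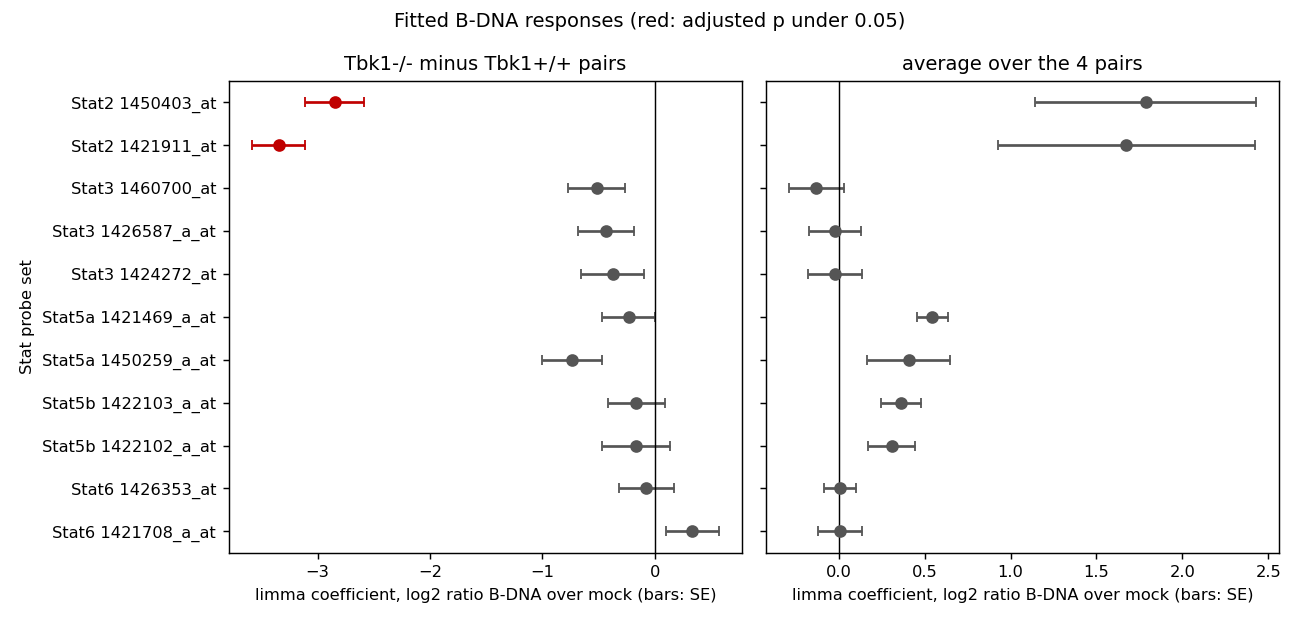
limma coefficients with SE bars for the 11 Stat probe sets: left, the difference of the log2 ratio B-DNA over mock between Tbk1-/- and Tbk1+/+ pairs. Right, the mean log2 ratio over the 4 pairs. In red are the coefficients with adjusted p under 0.05, which are both Stat2 probe sets for Tbk1 (-2.85 and -3.35) and none for the average.

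Across the family, the 9 probe sets other than Stat2 had Tbk1 coefficients of -0.74 to 0.33 with limma adjusted p of 0.255 to 0.928, and 1 of them had an unadjusted p under 0.05. Their median coefficient was -0.23, against 0.04 over all probe sets. In the average over pairs, 0 of 11 Stat probe sets passed (limma adjusted p 0.618 to 0.993), with 3 at an unadjusted p under 0.05, and 0% of all probe sets passed (1301 of 16406 had an unadjusted p under 0.05). The 2 Stat2 probe sets averaged 1.79 ± 0.64 and 1.67 ± 0.75 (SE), an average of 2 large and 2 small pair ratios.

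The mock arrays were used to ask whether the kinases set the level before B-DNA. None of the 11 Stat probe sets passed for either kinase, with limma adjusted p of 0.924 or more, where 0% of all probe sets passed in each test (411 for Tbk1 and 510 for Ikbke at an unadjusted p under 0.05). For Stat2 1450403_at the mock difference was -0.48 for Tbk1-/- minus Tbk1+/+ (limma adjusted p = 0.953), with 131 on the Tbk1-/- mock array against 209 to 238 on the 3 others. Over all 8 arrays, the level by Ikbke genotype passed for 0 of 11 Stat probe sets (limma adjusted p 0.384 or more) and for 0.0061% of all.

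The genes of the apparatus around the Stat proteins that passed for Tbk1 were all lower in the response of Tbk1-/- pairs. Most passing genes of any kind had that direction. Genes were taken by their brightest probe set, of which 1.95% passed for Tbk1 (188 of 9626, 170 lower and 18 higher in Tbk1-/- pairs). Of 15 receptor chains measured, 1 passed. It is Il13ra1, a chain of the interleukin-13 receptor that acts through Stat6. Il13ra1 read 483 with B-DNA and 594 mock on the Tbk1-/- arrays and 354 and 463 on the Tbk1-/- Ikbke-/- arrays, while Ikbke-/- cells read 1865 and 799 and WT cells 2069 and 804. Its Tbk1 coefficient was -1.64 ± 0.24 (SE, limma adjusted p = 0.0226), a call that was lost without further scaling. Il15ra, the interleukin-15 receptor chain, had 1607 against 800 in Ikbke-/- cells and 1471 against 498 in WT cells, with limma adjusted p = 0.0842 for Tbk1. Lifr, the receptor of leukemia inhibitory factor, was 2-fold in Ikbke-/- cells alone (353 with B-DNA, 147 mock).

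Among 9 kinases and partners of the Stats, 2 passed, Irf9 and Nmi. For Irf9, the DNA-binding partner of Stat2, the Tbk1-/- arrays read 157 with B-DNA and 171 mock, and the Tbk1-/- Ikbke-/- arrays 193 and 222. Ikbke-/- cells read 1425 with B-DNA against 335 mock and WT cells 798 against 294, so that both genotypes without Tbk1 lay under every other array. Its coefficient was -1.93 ± 0.27 (SE, limma adjusted p = 0.0210), and this call too was lost without further scaling. Nmi, an interactor of Myc and Stat proteins, read 103 with B-DNA and 139 mock on the Tbk1-/- arrays, and 182 and 184 on the Tbk1-/- Ikbke-/- arrays. It read 1694 against 187 in Ikbke-/- cells and 961 against 92.6 in WT cells, with a coefficient of -3.18 ± 0.23 (SE, limma adjusted p = 0.0014). The WT mock and Tbk1-/- B-DNA values of Nmi were under the floor, which limits that coefficient. With the floor at the 20th percentile none of the 9 kinases and partners passed. Jak2 had folds of 1.18 for Tbk1-/-, 3.11 for Ikbke-/-, 0.939 for Tbk1-/- Ikbke-/- and 2.48 for WT cells, and missed the threshold for Tbk1 (limma adjusted p = 0.0642).

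Of 18 inhibitors measured, 2 passed, Usp18 and Socs1. Usp18, the protease that removes Isg15 and blocks the interferon receptor, was under the floor on all 4 arrays without Tbk1. It read 12241 with B-DNA against 178 mock in Ikbke-/- cells and 8274 against 240 in WT cells. Its coefficient was -5.60 ± 0.30 (SE, limma adjusted p = 0.0004). Socs1, the pseudosubstrate inhibitor of Jak kinases, read 204 with B-DNA and 150 mock on the Tbk1-/- arrays, and 119 and 129 on the Tbk1-/- Ikbke-/- arrays. It read 2220 against 200.4 in Ikbke-/- cells and 2200 against 252 in WT cells. Its coefficient was -3.12 ± 0.29 (SE, limma adjusted p = 0.0035). Socs2 was 2-fold in Ikbke-/- cells alone (925 against 352) and did not pass (limma adjusted p = 0.287). Over the 12 or 13 settings in which they could be fitted, the limma call held in 4 for Irf9, 5 for Il13ra1, 6 for Nmi and Socs1 and 7 for Usp18, and the sign was the same in each.

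**Figure D4:**
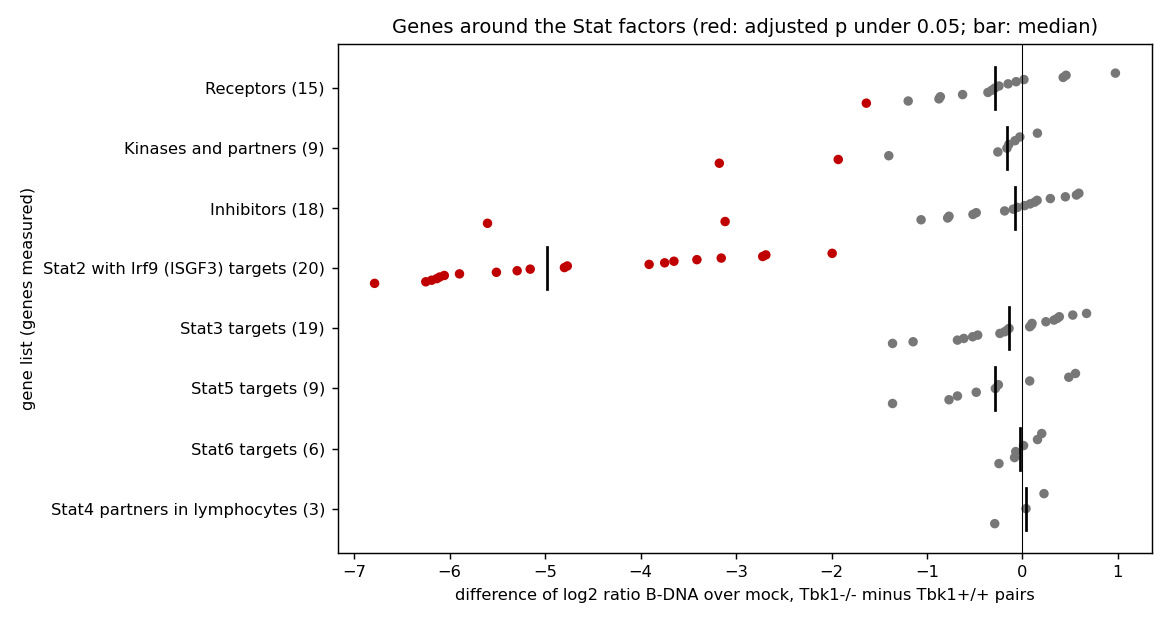
Difference of the log2 ratio B-DNA over mock between Tbk1-/- and Tbk1+/+ pairs, with 1 point per measured gene of each list and the list's median as a bar. Red points have adjusted p under 0.05. All 20 genes listed as ISGF3 targets that have a probe set are red and below 0, with a median of -4.98. The Stat3, Stat5 and Stat6 target lists hold no red point.

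The genes listed as targets of the complex that Stat2 forms with Irf9 were lower in the response of Tbk1-/- pairs. Whether their signal in these cells depended on Stat2 or Irf9 was not tested. Of the 24 listed, 20 had a probe set, and all 20 passed for Tbk1 with a median coefficient of -4.98 against 0.04 over all genes. Of these, 4 reached the floor only on the Ikbke-/- and WT B-DNA arrays, and so entered the test through the arrays where they are high. The 5 above the floor on all 8 arrays passed too when tested among such probe sets alone, with a median of -3.65. None of the 20 was 2-fold higher with B-DNA in Tbk1-/- or Tbk1-/- Ikbke-/- cells, and all 20 were in Ikbke-/- cells and in WT cells. Rsad2 (viperin, an antiviral enzyme) read 88.7 with B-DNA and 158 mock in Tbk1-/- cells, and 161 and 159 on the Tbk1-/- Ikbke-/- arrays. Rsad2 read 23212 against 123 in Ikbke-/- cells and 20479 against 401 in WT cells, which put its coefficient at -6.79 ± 0.37 (SE, limma adjusted p = 0.0004). The coefficients of Ifit2 (an RNA-binding interferon-induced protein), Oasl1 (an inhibitor of Irf7 translation) and Mx1 (an antiviral GTPase) were -6.25, -6.19 and -6.14, with limma adjusted p of 0.0004 or less. These are limited by the floor, under which Ifit2 lay on 5, Oasl1 on 3 and Mx1 on 6 of 8 arrays. The 20 calls stood without further scaling and after quantile normalization, 19 stood without the Ikbke term, and 14 with the floor at the 20th percentile. With no filter on low probe sets, or without the Ikbke term and any 1 pair, 0 stood, while all 20 coefficients were negative in each of these fits. This list was written with earlier results of these data known, so its direction is not independent evidence.

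None of 19 Stat3 targets, 9 Stat5 targets and 6 Stat6 targets measured passed for Tbk1, where 1.95% of all genes passed. Lists this short can hold no passing gene at that share. Their median coefficients were -0.14, -0.28 and -0.03. When only probe sets above the floor on all arrays were tested, 1 of 15 Stat3 targets passed, with a lower response in Tbk1-/- pairs. Fos, an immediate early gene, was lower with B-DNA by 2-fold or more in 3 genotypes: 1732 against 4566 in Tbk1-/- cells, 1604 against 3568 in Ikbke-/- cells and 696 against 1408 in WT cells. In Tbk1-/- Ikbke-/- cells Fos read 741 against 610. Pim1, a survival kinase, read 343 against 721 in Tbk1-/- cells but was higher with B-DNA in the other 3 genotypes. It read 280 against 73.4 in Ikbke-/-, 220 against 19.0 in Tbk1-/- Ikbke-/- and 302 against 30.2 in WT cells. These 3 mock values were under the floor, which gives at least 2.29-fold, 1.80-fold and 2.47-fold in that order. Pim1 did not pass for Tbk1 (limma adjusted p = 0.227). Myc was 2-fold in Tbk1-/- Ikbke-/- cells alone (455 with B-DNA against 212 mock), and Id1, a growth factor target, was at 0.482 times its mock array there (262 against 543) and at 0.507 times in WT cells (747 against 1473).

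The genes whose log2 signal followed a Stat gene most closely over the 8 arrays were taken from 7602 candidates, as a description with no test. For Stat2 they were Parp9 (r = 0.995), an ADP-ribosyltransferase family member, Igtp (r = 0.994), an interferon-induced GTPase, and Tap1 (r = 0.994), the peptide transporter of antigen presentation. Igtp read 128 to 336 on the 4 arrays without Tbk1, 14142 with B-DNA against 271 mock in Ikbke-/- cells, and 9840 against 225 in WT cells. These arrays form a high pair and a low remainder, so that any gene with that split correlates highly with Stat2. For Stat3 1460700_at the closest were Tmem128, Emp1 and Slc39a9 (r = 0.964 to 0.969), with Emp1 at 788 and 1346 on the Tbk1-/- Ikbke-/- arrays against 2958 to 4867 elsewhere. For Stat5a they were Gadd45g, Ctnnal1 and Cacybp (r = 0.951 to 0.974), and for Stat5b Tgfb2, Nfe2l1 and Ptpn21 (r = 0.933 to 0.970). Gadd45g, a growth arrest gene, was higher with B-DNA in each genotype, at log2 ratios of 0.61 in Tbk1-/-, 2.13 in Ikbke-/-, 0.97 in Tbk1-/- Ikbke-/- and 1.42 in WT cells. Stat4 and Stat6 spanned less than 2-fold after the floor, so no gene was named for them.

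In the genome (GRCm38.p6) Stat5b, Stat5a and Stat3 lie side by side on chromosome 11, with 346 bases between Stat5b and Stat5a and 1636 between Stat5a and Stat3. Stat2 and Stat6 lie 609510 bases apart on chromosome 10 (Stat2 at 128270498 to 128292853, Stat6 at 127642955 to 127660987). Of the 3 nearest measured genes on each side of Stat2, none was 2-fold in any pair or passed for Tbk1, where 1.95% of all genes passed. Spryd4, Timeless, Apon, Pan2, Cnpy2 and Cs were the 6, with coefficients of -0.45 to 0.43. Of the 6 such neighbours of Stat4, 1 passed, Inpp1 (coefficient -2.60, limma adjusted p = 0.0042). Its log2 ratios were 2.08 in Ikbke-/- and 2.73 in WT cells. No neighbour of the remaining Stat genes passed.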

How the data were processed

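Signal intensity of each probe set was made by the authors with Microarray Suite 5.0 (MAS5), per the labels and the design text. The intensity was deposited on a linear scale. GeneSpring is named with no role, and the scaling target is not given in the sources used here. The array type in the design text differs from the type to which the probe set names belong, and genes were named from the annotation of those names.

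Of 22690 probe sets, 64 controls were left out. Each array was scaled to a 2% trimmed mean of 500 (factors 1.96 to 3.59), with a floor at the 40th percentile of the scaled signals. Tests used limma 3.58.1 in R 4.3.3 (lmFit, eBayes, 2-sided, Benjamini-Hochberg over 16406 probe sets, threshold 0.05), with 1 residual degree of freedom for the kinase effects and 3 for the average. The fits were tested on simulated data. Alternatives in scaling, floor, filter, model and arrays left out are given in the closing section. Named were all Stat probe sets, up to 4 passing members per list and up to 3 at 2-fold in a pair, and the 3 genes most like each Stat gene. Members and lists were chosen with earlier results of these data known. One further gene of the family is not reported here.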

Additional observations from a re-analysis of the deposited data

Results flagged for a closer look

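The B-DNA response differed between Tbk1-/- and Tbk1+/+ pairs, by limma's test of the difference itself, for both Stat2 probe sets: -2.85 on the log2 scale for 1450403_at and -3.35 for 1421911_at. The same test gave -1.64 for Il13ra1, -3.18 for Nmi and -1.93 for Irf9. It gave -5.60 for Usp18 and -3.12 for Socs1, and -6.79 for Rsad2, -6.25 for Ifit2, -6.19 for Oasl1 and -6.14 for Mx1. Each was lower in the response of Tbk1-/- pairs in 4 of 4 comparisons of a Tbk1-/- with a Tbk1+/+ pair. These comparisons reuse the pairs of the test, and the probe sets are listed here for passing it. The count is therefore no separate support. Stat2 1421911_at and Mx1 reached the floor only on the Ikbke-/- and WT B-DNA arrays. Both entered the test through the arrays where they are high, and the floor partly set the size of their coefficients. No group held more than 1 array, so outlying arrays within a group could not be looked for.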

How the results depend on the processing

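The count of probe sets passing for Tbk1 was 281. It was 144 without further scaling, 62 with the floor at the 20th percentile, 129 with no interaction with Ikbke, 0 with no filter on low probe sets, and 0 to 0 with any 1 pair left out, a fit that also drops the Ikbke interaction because no residual degree of freedom is left with it. Stat2 lost its call in some of these: 1421911_at stayed at -3.35 with no filter (adjusted p = 0.267), and 1450403_at at -2.85 with the lower floor (adjusted p = 0.0815) and with no filter (adjusted p = 0.397). With a pair and that interaction left out, 1421911_at lay at -3.41 to -3.28 and 1450403_at at -3.11 to -2.59. Counts for the mock level were 7 (Tbk1) and 4 (Ikbke) with no floor, and 2 and 15 over probe sets above the floor on all arrays, against 0 each. The level by Ikbke, 1 probe set, became 14 with quantile normalization, 33 with no floor, 44 above the floor on all arrays, 13 with 1 probe set per gene, and 0 with any array left out. Without further scaling, the WT pair had 1506 probe sets at 2-fold (278 higher, 1228 lower), against 798 (499 higher, 299 lower), and the Tbk1-/- pair 240 (46 higher, 194 lower) against 129 (50 higher, 79 lower). The Ikbke-/- pair had 418 higher and 683 lower, against 532 and 235, and the Tbk1-/- Ikbke-/- pair 200 higher and 39 lower, against 107 and 142. That setting moves each log2 ratio clear of the floor by -0.40 in WT, -0.17 in Tbk1-/-, -0.23 in Ikbke-/- and 0.19 in Tbk1-/- Ikbke-/- cells. Ratios with a value at the floor move otherwise: Stat2 1421911_at in Ikbke-/- cells went from 3.41 to 3.43.

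Of 239 Stat coefficients under the alternatives, 210 kept their direction and side of the threshold, 11 lost the call and 18 changed sign. The signs changed without further scaling, for the averages of Stat6 1421708_a_at (-0.15) and 1426353_at (-0.15), and for the Tbk1 coefficients of Stat5a 1421469_a_at (0.093), Stat5b 1422102_a_at (0.11) and 1422103_a_at (0.16) and Stat6 1426353_at (0.25). With a pair left out, averages ranged over -0.12 to 0.11 and -0.037 to 0.073 for these Stat6 probe sets and over -0.20 to 0.048, -0.11 to 0.15 and -0.22 to 0.040 for Stat3 1424272_at, 1426587_a_at and 1460700_at. The Tbk1 coefficients, also without the Ikbke interaction, ranged over -0.42 to 0.086 for Stat5b 1422102_a_at, -0.42 to 0.096 for 1422103_a_at and -0.24 to 0.089 for Stat6 1426353_at. The causes were not tested. The response tests took the B-DNA and mock array of a genotype as a pair, and the labels carry no replicate numbers. Signals under the floor limit Stat4 and Stat2 1421911_at.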
